A study of Mus musculus with 6 samples.

Results

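The baseline transcriptome described here is that of control-hairpin V1, the primary visual area of the mouse cortex. It comes from 2 C57BL females, each 9 weeks old, whose V1 had received an adeno-associated virus (AAV) with a control short hairpin RNA (shControl). Its members are the 2 libraries that the labels put in the shControl group, of 6 libraries in the series, and the 54429 genes that the deposited table holds. The other 4 libraries came from V1 injected with hairpins labelled shCSB or shCSB/shNDN, and no value of theirs is used. Every library was prepared as stranded total RNA from a lipid-tissue extraction. Since both control mice were injected, the values describe V1 that carried a viral hairpin, and no uninjected cortex was analysed here. Each mouse gave 1 library, so the spread given below is between 2 animals and includes their dissections and preparations.

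V1 is the cortical area that receives visual input from the thalamus. It is built of layers of glutamate-releasing excitatory neurons, among which smaller classes of GABA-releasing inhibitory interneurons are scattered, together with astrocytes, oligodendrocytes, microglia and blood vessels. Dopamine, serotonin, noradrenaline and most acetylcholine reach the cortex in axons whose cell bodies lie elsewhere, so the receptors for these transmitters can be made in V1 while the enzymes that make them are mostly not. In RNA from a piece of tissue, more cells of a type and more RNA per cell cannot be told apart.

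The values are FPKM, which scale the fragments of a gene by its length and by a library size and so allow levels of genes of different length to be compared. Read counts were recovered from them and summed to 16781184 reads in replicate 1 and 15731788 in replicate 2. At that depth 3 reads on a gene of 1000 bases correspond to 0.184 FPKM in replicate 1 and 0.201 FPKM in replicate 2, and lower values rest on fewer reads than that. The library size behind the FPKM was 0.970 times the summed reads in replicate 1 and 0.949 times in replicate 2. Why it was smaller is not given in the sources used here. Squared differences between the 2 libraries averaged 11.0 times their counting variance (chi-square over degrees of freedom, 17395 genes). Counting error alone thus does not account for the spread between them. Wherever 2 values are given without further label, they are FPKM in shControl replicate 1 and shControl replicate 2, in that order. No group was compared with another, so no test was run.

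Protein-coding genes took 97.1% of the reads in replicate 1 and 97.2% in replicate 2. Of 54429 genes, 12406 had at least 1 FPKM in both libraries, the level called detected from here on, and 30526 were listed at 0 in both. Detection differed by class: 11175 of 22004 nuclear protein-coding genes (50.8%) passed, against 547 of 9665 long noncoding RNA genes (5.66%), 480 of 13022 pseudogenes (3.69%) and 86 of 6052 genes for small RNAs and ribosomal RNA (1.42%). Detected nuclear protein-coding genes had a median of 7.39 FPKM and detected long noncoding genes a median of 2.63 FPKM. At 100 FPKM or more stood 525 nuclear protein-coding genes, which were 2.39% of the class and took 31.5% and 32.0% of all reads. Only 3 long noncoding genes reached that level.

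**Figure D1:**
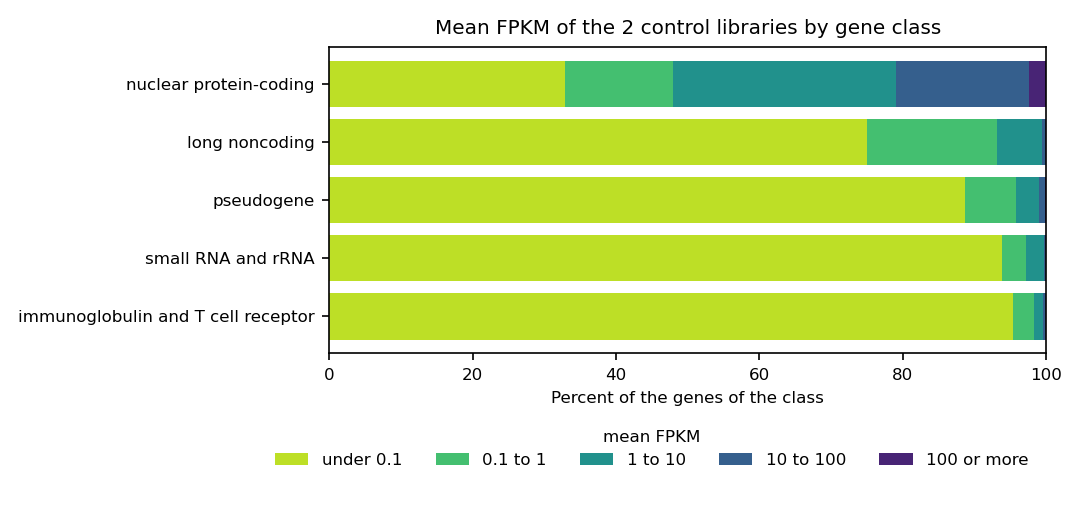
Share of the genes of 5 classes (horizontal axis, percent) in 5 ranges of mean FPKM over the 2 shControl libraries (colours). The range under 0.1 FPKM holds 32.8% of nuclear protein-coding genes, 75.0% of long noncoding genes and 88.6% of pseudogenes.

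The nuclear protein-coding transcriptome was led by genes for iron storage, calcium signalling, energy supply, translation and secretion. Fth1, the heavy chain of the iron store ferritin, was the highest, at 4537 and 4240 FPKM (4388 ± 210, SD, n = 2). Nrgn, the postsynaptic calmodulin-binding protein neurogranin, followed at 2234 and 2532 FPKM. Fth1 was 2.03 times Nrgn in replicate 1 and 1.67 times Nrgn in replicate 2, so the order of these 2 genes was the same in both animals. The calmodulin genes Calm2 (1323 and 1301 FPKM) and Calm3 (1272 and 1332 FPKM) lay so close that they changed places between the libraries. Camk2n1, an inhibitor of the calcium-dependent kinase CaMKII, had 833 and 1104 FPKM and was the least even of these 4 calcium-signalling genes.

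Secreted proteins and the machinery that makes them formed another part of the 30 highest nuclear protein-coding genes. Cst3, which encodes the protease inhibitor cystatin C, had 1555 and 1334 FPKM. Apoe, the main lipid carrier of the brain, had 1265 and 1126 FPKM. Pcsk1n and Cpe, an inhibitor and an enzyme of prohormone processing, had 1025 and 974 FPKM and 864 and 772 FPKM. Psap, the precursor of lysosomal saposins, had 594 and 704 FPKM. The first 4 of these genes were higher in replicate 1 and Psap was higher in replicate 2, each by less than 1.5-fold.

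Genes of energy supply and translation filled much of the rest. The creatine kinase Ckb, which buffers ATP, had 1086 and 1257 FPKM, and the glycolytic aldolase Aldoa had 884 and 846 FPKM. Nuclear subunits of cytochrome c oxidase came 3 times among the 30, Cox8a highest at 1191 and 1065 FPKM and Cox4i1 lowest at 604 and 555 FPKM. Among translation genes Rplp1, a protein of the ribosomal stalk, had 1763 and 1510 FPKM. Eef1a2, the elongation factor form of neurons and muscle, had 1105 and 1104 FPKM, above its widely expressed paralog Eef1a1 at 783 and 726 FPKM in both libraries. The 10 highest genes together took 6.31% and 6.08% of the summed FPKM of nuclear protein-coding genes, and the 1000 highest took 59.8% and 59.7%.

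**Figure D2:**
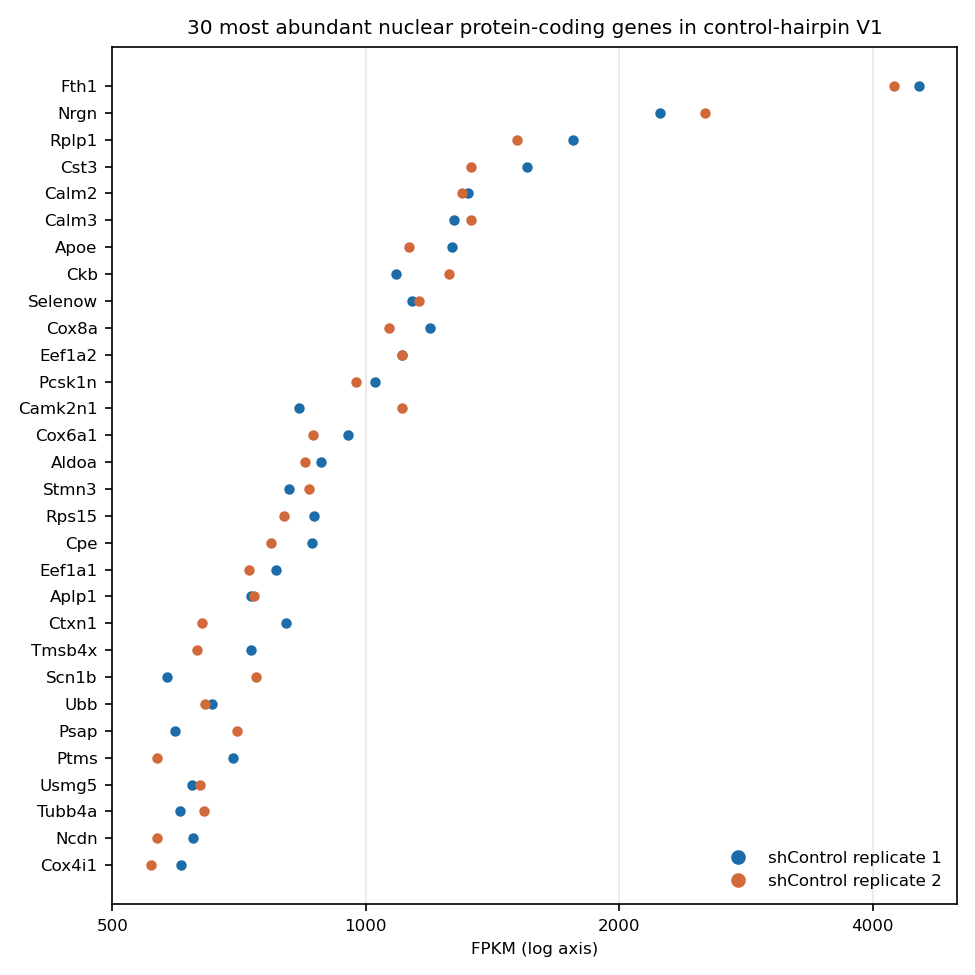
FPKM (log axis) of the 30 nuclear protein-coding genes with the highest mean, in shControl replicate 1 (blue) and replicate 2 (orange), 1 row per gene. Values run from 4537 FPKM for Fth1 in replicate 1 down to 555 FPKM for Cox4i1 in replicate 2, and the 2 libraries differ by less than 1.5-fold in every row.

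Ranking by reads in place of FPKM favours long transcripts, and 16 of the 30 genes stayed among the top 30. Mbp, a structural protein of myelin, then came first with 71372 and 67759 reads. Camk2n1 had 60270 and 73245 reads, and Fth1 had 63974 and 54817 reads. The genes that entered the 10 highest by reads also included Camk2a, a CaMKII subunit (47654 and 53704 reads), and Kif5a, a motor of axonal transport (41303 and 53794 reads).

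Genes encoded by the mitochondrion took 7.06% and 6.61% of the reads but 18.0% and 17.3% of the summed FPKM. Their 13 protein genes covered a wide range of levels. mt-Co1, a subunit of cytochrome c oxidase, had 12741 and 11963 FPKM, followed by mt-Cytb of complex III at 10797 and 9999 FPKM and mt-Nd1 of complex I at 9924 and 9723 FPKM. Between these and the lowest lay mt-Nd5 of complex I at 1571 and 1417 FPKM. mt-Co3, a subunit of the same enzyme as mt-Co1, had only 182 and 172 FPKM, so that mt-Co1 was 70.1 and 69.7 times as high. mt-Co2 had 655 and 369 FPKM, mt-Atp6 428 and 746 FPKM, and mt-Nd3 130 and 138 FPKM. The lowest were mt-Nd4l at 95.3 and 39.7 FPKM and mt-Atp8 at 24.7 and 3.28 FPKM.

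The nuclear genome of the mouse is known to hold copies of mitochondrial DNA. A stretch of chromosome 1 from 24611535 to 24616197 holds 7 genes annotated as unprocessed pseudogenes, and these had 11842 reads in replicate 1 and 9362 in replicate 2. Gm28661 was the highest of them, at 439 and 322 FPKM, and had the highest mean of all pseudogenes of at least 200 bases, although another pseudogene, Gm10123 on chromosome 9 (226 and 504 FPKM), was above it in replicate 2. Neighbours in the stretch were Gm28437, Gm28438 and Gm10222, with lengths of 783, 345 and 294 bases in the table, beside 784 for mt-Co3, 348 for mt-Nd3 and 297 for mt-Nd4l. How reads that match more than 1 place were counted is not given in the sources used here, so the levels of the low mitochondrial genes and of these pseudogenes are uncertain. The same holds for Rpl17-ps10, a processed pseudogene listed at 324 and 307 FPKM, whose parent gene Rpl17 was listed at 122 and 108 FPKM.

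Long noncoding RNAs took 1.12% and 1.09% of the reads. The highest per length was 6330403K07Rik, at 198 and 192 FPKM, followed by 2900097C17Rik at 155 and 149 FPKM. Meg3, an imprinted transcript made from the maternal chromosome, had 120 and 117 FPKM and, being long, the most reads of the 15 highest, 35326 and 31698. Peg13, an imprinted transcript inside the Trappc9 gene, had 73.7 and 100 FPKM. Mir124a-1hg, the host transcript of a copy of the neuronal microRNA miR-124, had 50.3 and 54.2 FPKM. Miat closed the 15 highest at 34.6 and 33.9 FPKM. Outside the rule for named genes, and chosen after their values were seen, Malat1 had 19.4 and 20.9 FPKM and Neat1 4.07 and 4.01 FPKM. These 2 nuclear-retained transcripts thus lay below the 15 highest in both libraries.

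Marker lists were used to describe the cell types in the tissue, and all 6 genes chosen to mark the main cell classes were detected. Slc17a7, the vesicular glutamate transporter VGLUT1, had 406 and 420 FPKM. Mbp had 522 and 540 FPKM, and Cldn5, a tight-junction protein of brain endothelium, had 64.0 and 68.2 FPKM. Gad1, which makes GABA, had 29.8 and 35.7 FPKM. Aqp4, the water channel of astrocyte endfeet, had 9.64 and 8.67 FPKM, and Cx3cr1, the fractalkine receptor of microglia, had 5.93 and 8.06 FPKM. In the 8 lists of cortical cell types 89 of 95 genes were detected (93.7%), set against 50.8% of all nuclear protein-coding genes, whose median was 1.23 FPKM. The same 50.8% is the share to set beside each count of detected list members below. The lists were chosen with earlier results of these data known, so the 93.7% describes the tissue and does not check its label.

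Neuronal markers were high for excitatory and moderate for inhibitory neurons. The excitatory list had a median of 45.4 FPKM over 10 genes, all detected, with Nrgn the highest. Camk2a had 392 and 482 FPKM, and Neurod6, a transcription factor of cortical excitatory neurons, had 46.1 and 41.0 FPKM. The inhibitory list had a median of 4.30 FPKM, with 10 of 11 genes detected. Slc32a1, the vesicular GABA transporter, led it at 40.7 and 42.7 FPKM, and Dlx1, a transcription factor of interneurons, had 6.92 and 8.64 FPKM. Dlx6os1, a long noncoding RNA beside Dlx6, was lowest at 1.25 and 0.945 FPKM. Slc17a7 was 13.6 and 11.8 times Gad1 and 9.97 and 9.84 times Slc32a1.

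The glial lists ranked with myelin first. The oligodendrocyte list had a median of 77.5 FPKM, and all 12 genes were detected. Mobp, a protein of compact myelin, had 146 and 166 FPKM. Aspa, which breaks down N-acetylaspartate, was lowest at 4.11 and 3.45 FPKM. The list for oligodendrocyte precursors had a median of 2.12 FPKM, with 7 of 9 genes detected. Olig1 (117 and 101 FPKM) and Olig2 (23.0 and 19.6 FPKM), transcription factors of the whole lineage, led it, while Pdgfra, the growth factor receptor that defines precursors, had 2.50 and 1.74 FPKM.

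Astrocyte markers had a median of 28.3 FPKM, and all 13 were detected. Aldoc, a brain form of aldolase, had 388 and 431 FPKM, and the glutamate transporter Slc1a2 had 115 and 111 FPKM. Gfap, the intermediate filament that rises in reactive astrocytes, had 52.2 and 48.4 FPKM. Aqp4 and Sox9, a glial transcription factor (6.16 and 4.52 FPKM), stood at the low end. Aldoc was 40.3 and 49.7 times Aqp4.

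Microglial markers had a median of 11.9 FPKM, and all 15 were detected. The complement genes C1qa (69.4 and 61.5 FPKM) and C1qb (68.7 and 62.2 FPKM) were highest. Tmem119 and P2ry12, which mark resident microglia, had 14.2 and 16.0 FPKM and 7.94 and 8.47 FPKM. Itgam, an integrin shared with other myeloid cells, was lowest at 1.74 and 1.60 FPKM.

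Vascular lists came lower. All 14 endothelial genes were detected, with a median of 5.13 FPKM. Slc2a1, the glucose transporter of the blood-brain barrier, had 31.1 and 29.0 FPKM. Of 11 genes of mural cells (pericytes and vascular smooth muscle) 8 were detected, with a median of 2.25 FPKM. Vtn led at 53.5 and 50.4 FPKM, and the smooth muscle gene Acta2 had 12 and 10.6 FPKM. Tagln, another smooth muscle gene, was listed at 0 in both libraries. The Tagln interval (45929619 to 45936058) overlaps 2 genes on the other strand, Pcsk7 only at its edge (end 45929726) and Gm48529 inside it (45930112 to 45933738). Whether the counting used strand is not given in the sources used here, and the reason for the value of 0 was not tested.

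Markers of neighbouring or unrelated tissue were mostly low, with 21 of 68 genes detected (30.9%), beside 50.8% of all nuclear protein-coding genes. In the list for other organs 0 of 9 genes were detected, among them the liver gene Alb and the insulin gene Ins2, both listed at 0. Hemoglobin genes were the exception: Hbb-bs had 85.6 and 136 FPKM and Hba-a1 82.9 and 123 FPKM, both higher in replicate 2. Thalamic markers had a median of 0.601 FPKM, with Gbx2 listed at 0 in both libraries. Drd1 and Drd2, the dopamine receptors that define the main striatal neurons, had 1.35 and 1.27 FPKM and 0.603 and 0.710 FPKM. The immunoglobulin heavy chain gene Ighm had 28.2 and 39.8 FPKM, while the B cell genes Cd79a and Ms4a1 were both under 1 FPKM. Among genes of the T cell receptor, the constant region Trbc2 had 33.6 and 33.3 FPKM, while Cd3e and Cd3g, of the receptor's signalling complex, were under 0.1 FPKM in both libraries.

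**Figure D3:**
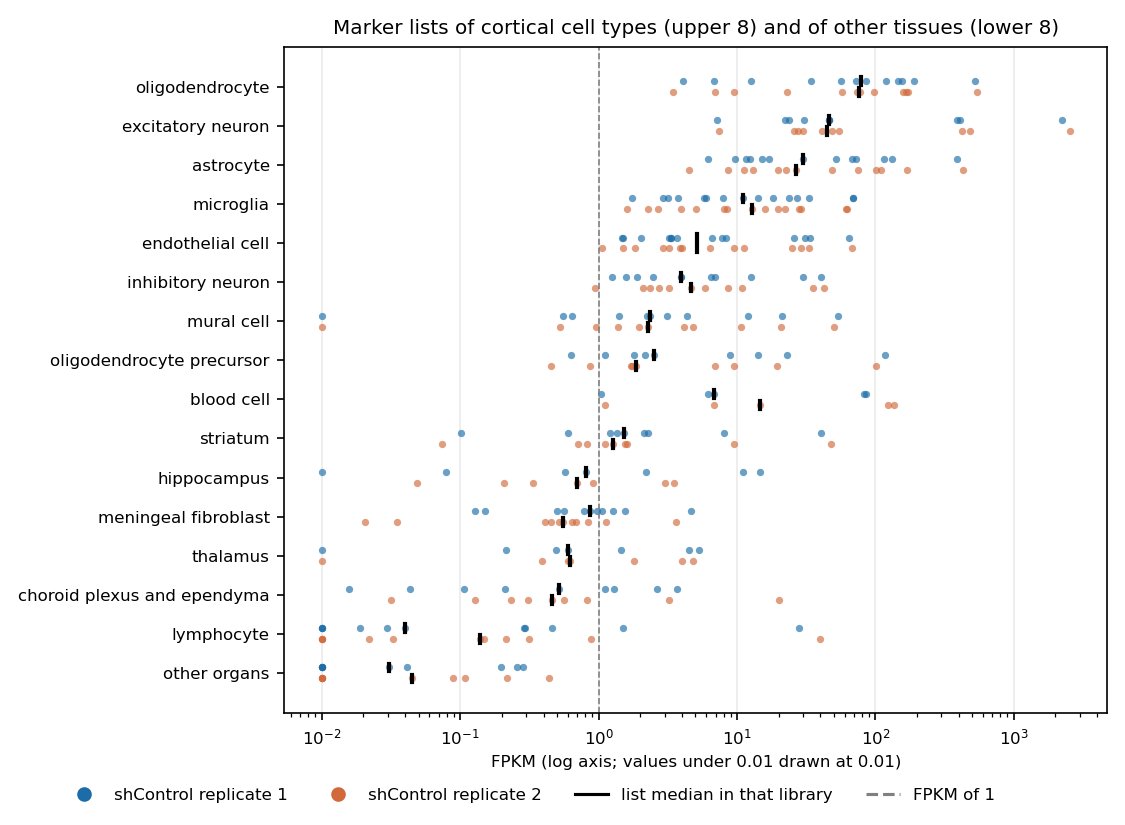
FPKM (log axis) of every measured member of 8 cortical cell type lists and 8 lists for other tissues in shControl replicate 1 (blue) and replicate 2 (orange), with the list median in each library (black bar) and a dashed line at 1 FPKM. All cortical lists have their median above 1 FPKM, with the oligodendrocyte list highest at 77.5 FPKM, and the list for other organs is lowest at 0.0430 FPKM.

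Markers were examined for layers 2 to 6b, with no list for layer 1, and 38 of 52 genes in the layer and area lists were detected. For layers 2 and 3 the median was 7.02 FPKM, with 9 of 10 detected, and Cux2, a transcription factor of upper layers, had 9.20 and 10.3 FPKM. Layer 4, the main target of thalamic input, had a median of 3.46 FPKM with 6 of 8 detected. Rorb, a nuclear receptor of layer 4 neurons, had 3.82 and 4.94 FPKM, and the secreted factor Rspo1 had 15.7 and 27.7 FPKM. Layer 5 had a median of 2.15 FPKM with 7 of 11 detected, layer 6 a median of 1.45 FPKM with 5 of 10 detected, and layer 6b a median of 5.03 FPKM with 5 of 6 detected. The layer 6b median was 7.02 FPKM in replicate 1 alone and 3.05 FPKM in replicate 2 alone. Among area markers Lmo4 had 84.9 and 80.5 FPKM and Nr2f1, a factor of caudal cortex, had 24.0 and 21.8 FPKM.

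The 2 control animals differed in their layer markers. Over all 12986 genes with a mean of at least 1 FPKM, 8.18% differed by more than 1.5-fold between the libraries, with 4.13% higher in replicate 1 and 4.05% higher in replicate 2. Of the 17 detected markers of layers 5, 6 and 6b, 10 were over 1.5-fold higher in replicate 1 and 0 in replicate 2, with a median log2 ratio of 0.63 on the scale of FPKM plus 0.1. Of the 15 detected markers of layers 2 to 4, 2 were that much higher in replicate 1 and 2 in replicate 2. The grouping into deep and upper layers was made after the values were seen and is a description of these 2 libraries.

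Single deep-layer genes showed how wide this gap was. Crym, a thyroid hormone binding protein of layer 6, had 33.6 and 12.9 FPKM, and Rprm, a cell cycle regulator used as a layer 6 marker, had 66.3 and 37.3 FPKM. Fezf2 and Bcl11b, transcription factors of subcortical projection neurons, had 30.5 and 18.4 FPKM and 6.44 and 3.67 FPKM. Nr4a2, an orphan nuclear receptor of layer 6b, had 9.23 and 3.02 FPKM. The opposite was seen for Lamp5, a marker of upper layers and of a class of interneurons, with 91.0 and 182 FPKM, and for Rspo1 above. Pcp4, a calmodulin regulator listed for layer 5, also went the other way at 34.8 and 46.0 FPKM. Not all upper-layer markers did so. Wfs1 (29.0 and 16.0 FPKM) and Otof (2.61 and 1.14 FPKM), both listed for upper layers, were higher in replicate 1, like the deep-layer genes.

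Other marker lists also differed between the libraries, some higher in replicate 1 and others in replicate 2. The thalamus list, at 12.6 and 12.2 FPKM summed, and the striatum list, at 57.6 and 64.3 FPKM, differed less. The 7 hippocampal genes summed to 29.4 FPKM in replicate 1 and 8.71 FPKM in replicate 2, mainly through Fibcd1 (14.6 and 3.0 FPKM) and C1ql2 (11.1 and 3.52 FPKM), while Prox1, which marks the dentate gyrus, had 0.805 and 0.910 FPKM. The 9 genes of choroid plexus and ependyma summed to 9.61 and 25.9 FPKM, mainly through Ttr, the thyroxine carrier of choroid plexus, at 3.68 and 20.2 FPKM. Otx2, a factor that defines choroid plexus, stayed at 0.0436 and 0.0317 FPKM. Blood genes summed to 183 and 282 FPKM. The 11 genes of meningeal fibroblasts, 2 of them detected, were all higher in replicate 1 and summed to 12.5 and 8.90 FPKM. Of the 9 oligodendrocyte precursor genes 8 were higher in replicate 1, with sums of 171 and 144 FPKM. None of the 7 detected differed by more than 1.5-fold. The median log2 ratio of detected members was 0.31 for precursors and 0.40 for meningeal fibroblasts. Over the 12986 genes with a mean of at least 1 FPKM it was 0.0045. The share of all genes higher in each library was not counted, so these directions are descriptive. The part of neighbouring tissue, blood or precursor cells in the difference between layer markers was not tested.

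**Figure D4:**
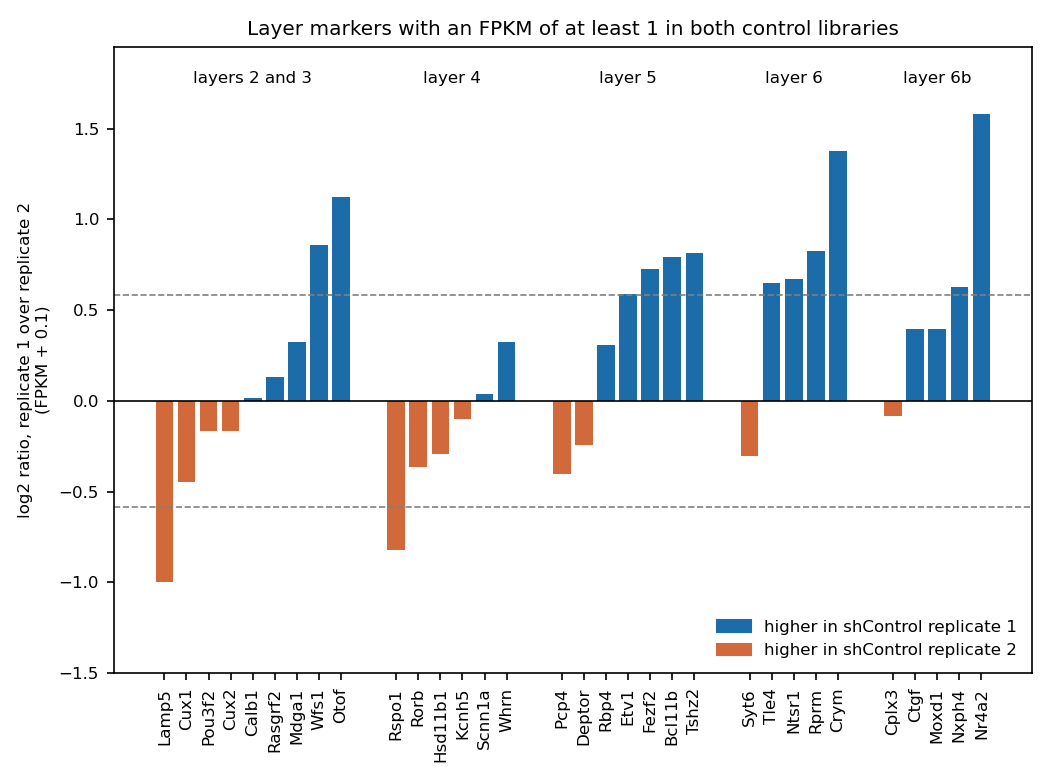
Log2 ratio of shControl replicate 1 over replicate 2 (vertical axis, FPKM plus 0.1) for each detected layer marker, grouped by layer. Blue bars are higher in replicate 1, orange bars higher in replicate 2, and dashed lines mark a 1.5-fold difference, which 10 of 17 markers of layers 5 to 6b exceed, all of them upward.

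Neuropeptide genes marked the interneuron classes at very unequal levels. Cck, which encodes cholecystokinin and is also made by excitatory neurons, had 518 and 591 FPKM. Sst, the somatostatin of a main interneuron class, had 651 and 425 FPKM (538 ± 160, SD, n = 2), so the order of Cck and Sst was reversed between the animals. Pvalb, the calcium buffer of fast-spiking interneurons, had 102 and 163 FPKM. Vip, the peptide of another interneuron class, had 12.5 and 13.3 FPKM. Sst was 6.37 times Pvalb in replicate 1 and 2.61 times in replicate 2, and 52.1 and 32.0 times Vip. A transcript level per class is no count of its cells, and Sst exceeded Gad1, which all these classes use.

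Of 18 cortical neuropeptide genes 15 were detected, but 3 of them carried most of the message. Cck, Sst and Npy (168 and 217 FPKM) together outweighed the others: Sst held 44.4% and 31.5% of the summed FPKM, Cck 35.3% and 43.8%, and Npy 11.4% and 16.1%. Penk, which encodes enkephalins, had 23.0 and 37.6 FPKM, and Crh, the stress peptide corticotropin-releasing hormone, had 9.68 and 9.64 FPKM. Nts, which encodes neurotensin, differed most, with 6.45 FPKM in replicate 1 and 0.0537 FPKM in replicate 2. Grp, the gastrin-releasing peptide, had 23.7 and 5.06 FPKM. Gal was listed at 0 in both libraries, and of 9 hypothalamic peptide genes only Pomc, at 2.42 and 1.42 FPKM, was detected. Hypothalamic genes such as Avp (0.319 and 0.580 FPKM) and Oxt (0.343 and 0.249 FPKM) were under 1 FPKM in both libraries.

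The granins, acidic proteins that pack peptides into dense-core vesicles, were uniformly high. All 7 genes of the granin list were detected, with a median of 156 FPKM. Pcsk1n led, Vgf had 268 and 257 FPKM, Chgb had 146 and 165 FPKM, and Scg2 was lowest at 58.4 and 64.3 FPKM. None of the 7 differed by more than 1.5-fold between the animals. The promoters of Sst, Chgb and Scg2 are shown because these abundant peptide and granin genes share the cyclic AMP response element (CRE), the letters TGACGTCA, in the 250 bases before their RefSeq start. The letters are a palindrome, so both strands are searched at once, and 588 of 32851 mouse promoters in the RefSeq table (1.79%) hold them in that window. Of the promoters found, 2 of 14 for cortical neuropeptides (Sst and Cartpt) and 2 of 6 for granins (Chgb and Scg2) hold them, as do 2 of 14 for immediate early genes (Btg2 and Dusp1) and 0 of 7 for hypothalamic peptides. Each sequence is given from GRCm38.p6, 5′ to 3′ in the direction of the gene, with the CRE letters in capitals: Sst from chr16:23890845-23891094 (minus strand), Chgb from chr2:132781392-132781641 (plus strand) and Scg2 from chr1:79440027-79440276 (minus strand).
Sst: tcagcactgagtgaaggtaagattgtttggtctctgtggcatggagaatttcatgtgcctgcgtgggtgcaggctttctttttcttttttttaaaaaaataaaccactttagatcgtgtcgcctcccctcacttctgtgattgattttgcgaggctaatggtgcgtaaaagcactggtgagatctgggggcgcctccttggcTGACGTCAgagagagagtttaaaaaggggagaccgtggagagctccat
Chgb: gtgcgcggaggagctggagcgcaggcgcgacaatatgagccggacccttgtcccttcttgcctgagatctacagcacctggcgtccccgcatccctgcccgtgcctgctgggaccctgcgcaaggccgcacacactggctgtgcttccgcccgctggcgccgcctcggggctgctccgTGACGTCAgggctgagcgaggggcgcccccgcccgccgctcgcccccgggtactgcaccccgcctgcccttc
Scg2: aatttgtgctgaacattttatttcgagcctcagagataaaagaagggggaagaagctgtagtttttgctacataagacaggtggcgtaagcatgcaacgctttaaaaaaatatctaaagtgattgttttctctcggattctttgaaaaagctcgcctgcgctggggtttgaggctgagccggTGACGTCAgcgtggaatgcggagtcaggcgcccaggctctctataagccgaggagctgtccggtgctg
The CRE letters lie 48 to 41 bases before the start in Sst, 72 to 65 in Chgb and 68 to 61 in Scg2. No binding was measured in these samples, so the match describes the sequence alone.

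Of 29 genes for peptide receptors 11 were detected, beside 15 of 18 cortical neuropeptide genes and 50.8% of all nuclear protein-coding genes. Ntsr2, a neurotensin receptor that astrocytes carry, was highest at 64.3 and 72.6 FPKM. Cckbr, the main brain receptor of cholecystokinin, had 35.7 and 32.2 FPKM, while its relative Cckar was listed at 0. Sstr2 (11.3 and 10.2 FPKM) led the 5 somatostatin receptors, and Sstr5 (0.0899 and 0.0490 FPKM) was the lowest. Oprm1, the mu opioid receptor, had 0.0153 and 0.0167 FPKM. Npy1r had 5.62 and 4.75 FPKM. Of the 11 detected genes, 1 differed by more than 1.5-fold between the animals, a share near the 8.18% of all genes.

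The highest single genes of the transmitter lists belonged to glutamate, although the list for its release and uptake had a lower median (16.6 FPKM) than the list for GABA synthesis, release and uptake (24.9 FPKM) or GABA-B receptors (62.7 FPKM). Glul, the glutamine synthetase of astrocytes, had 379 and 472 FPKM. Slc17a7 was 75.9 and 104 times Slc17a6, the VGLUT2 transporter of thalamic neurons (5.35 and 4.03 FPKM), and Slc17a8, VGLUT3, had 0.299 and 0.426 FPKM. Of the astrocytic uptake transporters Slc1a2 exceeded Slc1a3, which had 30.1 and 26.6 FPKM.

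All 4 AMPA receptor subunits, which carry fast excitation, were detected. Gria1 held 51.4% and 47.4% of their summed FPKM, at 46.6 and 34.5 FPKM, and Gria4 the least, at 9.60 and 9.55 FPKM. All 4 were higher in replicate 1, and none by more than 1.5-fold. Among NMDA receptor genes the obligatory subunit Grin1 had 61.4 and 65.1 FPKM. Grin2c was the highest of its partners at 15.5 and 18.0 FPKM, above Grin2a (7.92 and 7.34 FPKM) and Grin2b (5.85 and 5.15 FPKM) in both libraries. The ratio of Grin2a to Grin2b was 1.35 and 1.43. These levels divide reads by the full gene length in the table, so they are levels of RNA per length and not of subunits.

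Other glutamate receptors varied widely. Grik5, a kainate receptor subunit, had 89.6 and 91.2 FPKM, above Gria1, while Grik1 had 1.80 and 0.927 FPKM. Grm2, an inhibitory autoreceptor, led the metabotropic receptors at 22.4 and 26.0 FPKM, or 40.5% and 44.2% of their sum. Grm3 had 9.85 and 8.92 FPKM and Grm5 8.19 and 6.60 FPKM. Grm6, the receptor of retinal bipolar cells, was listed at 0 in both libraries.

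For GABA, synthesis and uptake genes lay between 2.37 and 41.7 FPKM as means, and all 8 were detected. Gad1 was 2.36 and 3.28 times Gad2, the other GABA-making enzyme. The uptake transporter Slc6a11 had 35.3 and 45.5 FPKM, above Gad1 in both libraries. Of 19 GABA-A receptor subunit genes 11 were detected, beside 50.8% of all nuclear protein-coding genes. Gabrd, a subunit of extrasynaptic receptors, was highest at 38.0 and 56.1 FPKM, and the alpha subunit gene Gabra4 had 10.7 and 11.1 FPKM. Gabrb2 had only 0.821 and 0.758 FPKM. The metabotropic GABA-B subunits Gabbr1 (92.0 and 97.9 FPKM) and Gabbr2 (28.7 and 32.3 FPKM) were both high.

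Glycine receptors were represented by Glrb, the beta subunit, at 32.9 and 38.8 FPKM. The alpha subunit Glra1 and the glycine transporter of glycinergic neurons, Slc6a5, were listed at 0 in both libraries. Glra2 had 2.50 and 1.11 FPKM.

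For the ascending transmitters, receptors were measured where the genes for synthesis were low. Chat, which makes acetylcholine, had 0.0261 and 0.0997 FPKM, while Ache, which breaks it down, had 24.7 and 23.9 FPKM. Chrm1, the muscarinic receptor of excitatory neurons, had 35.7 and 36.3 FPKM and 52.8% and 52.7% of the muscarinic total, and was 26.6 and 29.0 times Chrm2. Chrm4 had 22.3 and 22.4 FPKM. Of 11 nicotinic subunit genes only Chrna4 (8.61 and 7.51 FPKM) and Chrnb2 (5.48 and 7.90 FPKM), which form a common brain receptor, were detected.

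Noradrenaline receptors were the highest of the monoamine receptors after histamine's Hrh3. Adra1d had 33.7 and 38.2 FPKM, Adrb1 20.4 and 23.2 FPKM and Adra2c 13.7 and 14.2 FPKM. Dbh, which makes noradrenaline, had 0.0684 and 0.249 FPKM, and the noradrenaline transporter Slc6a2 was listed at 0 in both libraries. Dopamine receptors were low, with Drd1 alone detected of 5, and Th, the first enzyme of catecholamine synthesis, had 1.22 and 1.10 FPKM.

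Serotonin receptors were numerous and low. Of 14 genes 6 were detected, beside 50.8% of all nuclear protein-coding genes. The highest by mean, Htr6, had 2.68 and 3.49 FPKM, near Htr3a (3.33 and 2.73 FPKM), Htr1a (2.79 and 2.90 FPKM) and Htr7 (2.26 and 3.19 FPKM). The order of these 4 differed between the animals. Tph2, the neuronal enzyme of serotonin synthesis, had 0.960 and 0.442 FPKM, and the serotonin transporter Slc6a4 had 0 and 0.0296 FPKM. Hrh3, the histamine autoreceptor, had 41.1 and 47.4 FPKM, against 0.163 and 0.210 FPKM for Hdc, which makes histamine.

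Genes of endocannabinoid and adenosine signalling were of middle level. Mgll and Dagla, which break down and make the endocannabinoid 2-AG, had 51.3 and 67.2 FPKM and 25.8 and 29.7 FPKM. Cnr1, the cannabinoid receptor of axon terminals, had 9.76 and 9.73 FPKM, while Cnr2, found mainly on immune cells, had 0.123 and 0.0505 FPKM. Adora1, an inhibitory adenosine receptor, had 24.7 and 37.3 FPKM.

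**Figure D5:**
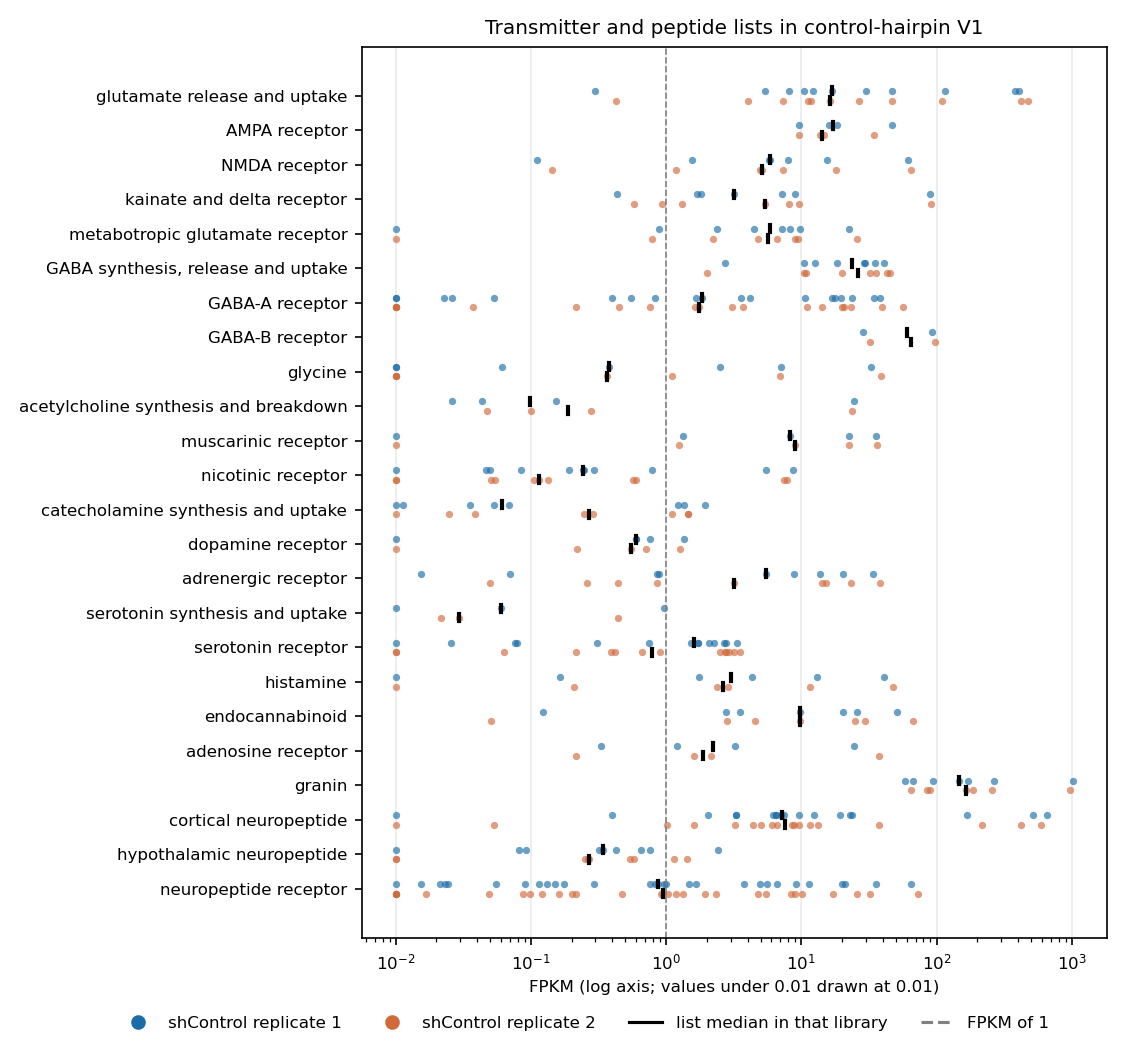
FPKM (log axis) of every measured member of 24 transmitter and peptide lists in shControl replicate 1 (blue) and replicate 2 (orange), with the list median in each library (black bar) and a dashed line at 1 FPKM. The granin list has the highest median, 156 FPKM, and the lists for synthesis of acetylcholine, catecholamines and serotonin have medians under 1 FPKM.

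Immediate early genes, which neurons switch on within minutes of activity, were all detected, 19 of 19, with a median of 28.0 FPKM. Arc, a regulator of synaptic strength, was highest at 276 and 321 FPKM. Egr1 had 123 and 130 FPKM, Junb 138 and 97.5 FPKM, and Fos 32.8 and 28.1 FPKM. Npas4, which responds to calcium entry, had 11.3 and 17.1 FPKM. Fosb and Fosl2 were among the lowest at 3.80 and 2.60 FPKM and 3.71 and 2.67 FPKM. Of the 19 genes, 15 were higher in replicate 1 and 4 in replicate 2. Their median log2 ratio was 0.23, beside 0.0045 over the 12986 genes with a mean of at least 1 FPKM. Of the 19, 4 differed by more than 1.5-fold (8.18% of all genes did), Nr4a2 the most. The labels do not say what the animals had seen before the tissue was taken.

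The spread between the 2 animals depended on the level. Over genes with a mean of at least 1 FPKM the log2 ratio of the libraries, on the scale of FPKM plus 0.1, had an SD of 0.51, where counting error alone would give 0.24. The SD was 0.62 between 1 and 10 FPKM, 0.25 between 10 and 100 FPKM and 0.22 at 100 FPKM or more. Of the 12986 genes, 361 differed by more than 2-fold. Of the 289 detected genes of any list, 37 differed by more than 1.5-fold (12.8%, against 8.18% of all genes).

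By the rule for the largest differences, 7264 genes were considered. mt-Atp8 differed most toward replicate 1, with 82 and 10 reads, a ratio of 7.52 (95% counting interval 3.89 to 16.3). Besides Fibcd1, Grp, C1ql2 and Nr4a2, the 10 genes higher in replicate 1 held Cpne7, a calcium-dependent membrane-binding protein (21 and 6.28 FPKM), and Nnat, an imprinted membrane protein of neurons (80.6 and 25.5 FPKM). Gm21887, annotated on chromosome X, had 85.8 and 21 FPKM, and Gm47283, annotated on chromosome Y, had 30.7 and 9.95 FPKM. The 4 Y-linked genes checked, Ddx3y, Eif2s3y, Kdm5d and Uty, had 0 reads in both libraries of these female mice.

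Toward replicate 2, Ttr differed most, with a ratio of replicate 1 over replicate 2 of 0.182 (95% counting interval 0.140 to 0.235). Scn4b, a sodium channel beta subunit, had 11.5 and 36.0 FPKM, and Kcnab3, a potassium channel beta subunit, had 26.1 and 62.1 FPKM. Cartpt, a neuropeptide, had 3.27 and 8.86 FPKM. Genes outside the rule, chosen after their values were seen, went the same way: Vamp1, a vesicle fusion protein (19.4 and 35.8 FPKM), Nefh, the heavy neurofilament (14.5 and 26.5 FPKM), and Hapln4, a perineuronal net protein (42.3 and 76.4 FPKM). All these genes were named by their ratio or with their values known. That they were higher in the library in which Pvalb was higher was thus fixed by the choice. With 2 libraries no correlation can be given.

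The genes that the hairpins of the series target differed in level in control tissue. Ercc6, which encodes the repair factor CSB, had 1.46 and 1.22 FPKM and ranked 10810 among 22004 nuclear protein-coding genes. Ndn, which encodes necdin, had 56.1 and 49.8 FPKM and ranked 1005.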

How the data were processed

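FPKM values per gene were taken as deposited by the authors in a single table of 6 libraries, of which the 2 shControl columns were used and 4 left out. The submitters' processing notes name the quality tool FastQC, the aligner HISAT2 (version 2.0.4) and the build GRCm39. The read counter, its strand setting, its treatment of reads with several matches and the annotation are not given in the sources used here. Starts and ends in the table equalled those of GENCODE M21, an annotation of GRCm38, at 53499 of the 54409 identifiers found in both, and GRCm38 is therefore the build named beside positions.

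FPKM multiplied by gene length gave whole reads within 0.01 for 100% of values in both libraries. These reads gave depth and read shares. Symbols on several entries (100) were summed, and 27 symbols turned into dates were restored by identifier. With 2 libraries of 1 group and no contrast, no test was run. Errors are the SD of 2 animals, and the intervals on ratios are exact and cover counting error only. Detection needs 1 FPKM in both libraries. Log2 ratios use a pseudocount of 0.1 and a mean of at least 1 FPKM.

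Named were the 30 nuclear protein-coding genes, 15 long noncoding genes and 5 genes of each other class highest by mean among genes of at least 200 bases, the mitochondrial protein genes, members of 49 gene lists, and the 10 genes per direction with the largest ratio between the libraries (mean of at least 5 FPKM, at least 50 reads in the higher library). Members and lists were chosen with earlier results of these data known. Alternatives covered detection limits, length, pseudocount, filters, scaling and leaving out each library. The recovery of reads was tested on simulated data. Python 3.11.15, pandas 2.3.3, numpy 2.4.6, scipy 1.17.1 and matplotlib 3.10.9 were used. Promoters came from RefSeq on GRCm38.p6 and were matched for 75.0% of nuclear protein-coding genes, under the 80% needed, so promoters were not compared between levels of expression. Some genes of the lists are not reported here.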

Additional observations from a re-analysis of the deposited data

How the results depend on the processing

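No paired analysis was possible because the values come from 1 group and from no test. The count of detected genes stayed within 1.5 times 12406 under the other detection limits, from 12403 to 17636. The protein-coding share was 91.3% of summed FPKM, 97.2% of reads on genes of at least 200 bases, and 98.1% of reads with mitochondrial genes left out. The mitochondrially encoded share was 17.7% of summed FPKM, and 16 of the 30 highest genes stayed among the highest when ranked by reads. The SD of the log2 ratio between the libraries was 0.31 with a pseudocount of 1, 0.80 with no filter and 0.24 for means of at least 10 FPKM, and the share of genes over 1.5-fold was 4.56%, 26.5% and 2.36% in the same order. With a floor of 10 reads in both libraries, some lists kept 1 member. These were acetylcholine synthesis and breakdown (Ache), hypothalamic neuropeptide (Pomc) and serotonin synthesis and uptake (Tph2). The lymphocyte list kept 2 (Ighm and Cd4), as did the list for other organs. Medians of such lists are the levels of those few genes. Leaving out members under that floor drops the low members. It raised the median of 24 of 49 lists by more than the spread between the libraries. Those medians, in FPKM, were mural cell 2.93, interneuron class 8.99, layer 5 3.6, choroid plexus and ependyma 1.99, hippocampus 1.45, lymphocyte 17.2, other organs 0.298, thalamus 1.11, cortical neuropeptide 9.66, hypothalamic neuropeptide 1.92, neuropeptide receptor 2.42, GABA-A receptor 10.9, NMDA receptor 6.56, acetylcholine synthesis and breakdown 24.3, adrenergic receptor 8.2, catecholamine synthesis and uptake 1.4, endocannabinoid 16.2, glycine 4.42, histamine 3.6, metabotropic glutamate receptor 7.39, muscarinic receptor 15.5, nicotinic receptor 3.69, serotonin receptor 2.27 and serotonin synthesis and uptake 0.701. With either library alone, list medians moved by more than that spread in 12 lists, in FPKM 27.4 to 27.5 for immediate early gene, 5.14 to 5.18 for endothelial cell, 2.26 to 2.34 for mural cell, 3.73 to 5.91 for cortical area, 0.462 to 0.52 for choroid plexus and ependyma, 0.693 to 0.805 for hippocampus, 0.0305 to 0.0448 for other organs, 0.597 to 0.625 for thalamus, 0.268 to 0.343 for hypothalamic neuropeptide, 0.871 to 0.951 for neuropeptide receptor, 0.552 to 0.603 for dopamine receptor and 5.67 to 5.82 for metabotropic glutamate receptor. Medians that moved by over 1.5 times with a library left out, within that spread, were those of layer 6b (3.05 to 7.02), blood cell (6.81 to 14.8), lymphocyte (0.0399 to 0.138) and catecholamine synthesis and uptake (0.0608 to 0.270).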

Other observations

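Of the genes that the deposited table annotates as transcription factors, 719 of 1469 (48.9%) were detected in control V1, with a median of 1.06 FPKM, near the 50.8% and 1.23 FPKM of all nuclear protein-coding genes. The factors named here were chosen after their values were seen. Thra, the thyroid hormone receptor alpha, was highest at 202 and 169 FPKM in shControl replicates 1 and 2, followed by the zinc finger factor Maz at 140 and 125 FPKM. Scrt1, a neuronal repressor of the Snail family, had 90.3 and 135 FPKM. Atf4, a factor of the integrated stress response, had 91.4 and 103 FPKM, and Nfix, a factor of neural and glial maturation, had 94.5 and 91.0 FPKM. Nr1d1, the circadian repressor REV-ERB alpha, had 60.5 and 62.7 FPKM. Among the 8 families with the most genes, the share detected ran from 36 of 232 homeobox genes (15.5%) to 34 of 45 ZBTB genes (75.6%), with basic leucine zipper genes at 35 of 48 (72.9%).

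Ribosomal protein genes were mostly high, with 51 of 77 at 100 FPKM or more and a median of 128 FPKM. Rps10 (2.29 and 3.10 FPKM) and Rpl24 (2.74 and 2.86 FPKM) alone were under 5 FPKM.

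Gapdh, an enzyme of glycolysis often used as a reference gene, was listed at 3.21 and 4.59 FPKM, with 216 and 283 reads. Other common reference genes were far higher, with Actb at 386 and 382 FPKM, Ppia at 255 and 216 FPKM, Pgk1 at 168 and 175 FPKM and Hprt at 127 and 122 FPKM. How reads with several matches were counted is not given in the sources used here, so the Gapdh, Rps10 and Rpl24 values are uncertain.

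Gm23935, a microRNA locus of 57 bases (GRCm38 chromosome 16, 11144125 to 11144181) inside Zc3h7a, was listed at 4112 and 5670 FPKM from 3817 and 4825 reads. Zc3h7a itself, on the other strand, had 3.27 and 3.01 FPKM. Among genes of at least 200 bases, the ribosomal RNA entry CT010467.1 had 95.4 and 191 FPKM, and Gm42418, which overlaps it on the other strand, was listed at 0 in both libraries. Gm10123, a processed pseudogene, had 226 and 504 FPKM. Tsix, which overlaps Xist on the other strand, was listed at 0 in both libraries, while Xist, which silences an X chromosome in female cells, had 9.24 and 6.88 FPKM.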
